A study of Mus musculus with 6 samples.

Results

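Nuclear receptors are transcription factors that are switched by small lipid-soluble ligands or, in the orphan members, act without a known hormone. The 45 genes described here were chosen by family name, through the Ensembl identifiers of the deposited table matched to gene symbols of GRCm38, and they are 45 of the 55536 genes in that table. Of these, 34 had enough counts to be tested, among 20744 tested genes.

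Testes of age-matched adult mice of 4 months were sequenced in 3 genotypes, with 2 libraries per genotype from separate animals. WT mice were FVB/NJ. P2KO mice (Padi2 single KO, on the FVB/NJ background) carry a gene trap in which a LacZ and neomycin cassette takes the place of the coding part of exon 1 of Padi2. DKO mice (Padi2/Padi4 double KO) carry the same trap and a small frameshift deletion in exon 1 of Padi4, made by CRISPR/Cas9 in P2KO zygotes, and descend from a single edited founder. Padi2 and Padi4 code for enzymes that turn arginine into citrulline, also in histones, and the comparison asked whether loss of PAD2 alone or of both enzymes alters gene expression in the testis, hormone signaling included. Each genotype is thus a single line, and other differences between lines cannot be told apart from the loss of the enzymes.

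Each library held between 21939393 and 27306679 counts on genes. Counts of Padi2 were 47 and 64 in WT, 100 and 55 in the libraries labelled P2KO, and 59 and 83 in those labelled DKO, so they do not check the labels. The trap replaces part of exon 1, and counts per exon were not analysed here. Padi4 had 20 and 43 counts in WT, 11 and 10 in P2KO, and 4 in each DKO library (DKO against WT: log2 fold change -2.94, adjusted p = 2.78e-04 in the quasi-likelihood test of edgeR, Benjamini-Hochberg adjusted). The libraries had the transcripts of a testis: Tnp1 of elongating spermatids had 31229 to 42568 counts, whereas of the markers of the epididymis Lcn5 had 0 in all 6, Crisp1 had from 0 to 9, and Rnase10 had from 95 to 138. These are whole testes, in which fewer cells of a type and less RNA per cell cannot be told apart.

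A typical nuclear receptor has a DNA-binding domain of a pair of zinc fingers and a ligand-binding domain, and it recruits coactivators or corepressors that open or close chromatin. In the testis, the family links hormones to steroid synthesis in Leydig cells, to the support that Sertoli cells give, and to the progress of germ cells through meiosis. A short stretch of the first zinc finger, the P box, reads the bases of the response element, and genes with the same P box can compete for the same elements.

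A pattern of cysteines that marks the DNA-binding domain was found in the coding sequence of 44 of the 45 genes, and Nr0b1 was the 1 without it. The 6 codons of the P box, translated, fell into 9 classes. The largest class held 27 genes, among them the thyroid hormone, retinoid, liver X, PPAR and Nr4a receptors and Nr6a1. The estrogen-related receptors Esrra, Esrrb and Esrrg formed a class of 3 genes, Nr2f1, Nr2f2 and Nr2f6 another, Nr3c1, Nr3c2 and Pgr another, and the estrogen receptors Esr1 and Esr2 a class of 2. The first finger of a tested gene from 5 of the classes is shown, because the class separates Esrrb, the gene with the called difference below, from the estrogen receptors it is named after. Each stretch has 69 bases of the coding strand from GENCODE mouse release 21 on GRCm38, written 5′ to 3′ with the P-box codons in capitals.
Nr6a1 (class of 27 genes; chr2:38760326-38760394, minus strand, exon 4): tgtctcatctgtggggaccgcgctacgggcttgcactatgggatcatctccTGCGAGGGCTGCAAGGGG
Esrrb (class of 3 genes; chr12:86470465-86470533, plus strand, exon 2): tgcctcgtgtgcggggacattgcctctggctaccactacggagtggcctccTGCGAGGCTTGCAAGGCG
Esr1 (class of 2 genes; chr10:4746717-4746785, plus strand, exon 3): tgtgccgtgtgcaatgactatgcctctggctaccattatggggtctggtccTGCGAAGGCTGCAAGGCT
Nr5a1 (class of 2 genes, minus strand of chromosome 2, across an exon junction): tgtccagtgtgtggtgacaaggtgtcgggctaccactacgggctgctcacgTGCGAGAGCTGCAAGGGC
Nr2f2 (class of 3 genes; chr7:70360027-70360095, minus strand, exon 1): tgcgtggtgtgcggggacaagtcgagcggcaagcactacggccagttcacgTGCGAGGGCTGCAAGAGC

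Over the translated domain of 56 residues, Esrrb was 98.2% identical to Esrrg, 91.1% to Esrra, 75.0% to Esr1 and to Esr2, 55.4% to Nr5a1 and 48.2% to Nr6a1. Esr1 and Esr2 were 96.4% identical, and the testicular receptors Nr2c1 and Nr2c2 were 85.7% identical. The clock repressors Nr1d1 and Nr1d2 were 94.7% identical over 57 residues. These values describe the reference genome and hold no measurement of the libraries.

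Levels are given as FPKM, the count per kilobase of merged exons, scaled to the counts on genes of the library, so that genes of different length can be set side by side. Together the 45 genes held between 0.0788% and 0.0828% of the counts of a library. In WT, FPKM of the tested genes ran from 19.2 for Nr6a1 to 0.0935 for Esrrg. Of the 34 tested genes, 28 had a highest normalized count under 1.5 times the lowest over all 6 libraries, whatever the genotype (normalized counts are counts brought to a common library size with the TMM factors).

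**Figure D1:**
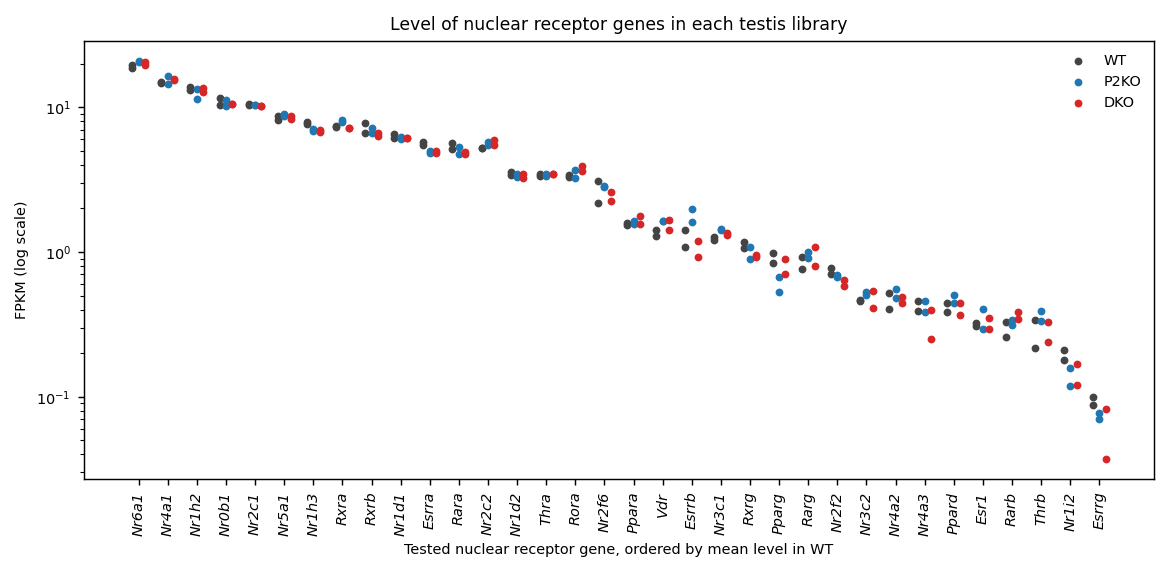
FPKM (log scale) of the 34 tested nuclear receptor genes in each of the 6 testis libraries, ordered by mean level in WT; points are libraries, colored by genotype. The order runs from Nr6a1 at 19.2 FPKM to Esrrg at 0.0935 FPKM in WT, and the libraries of the 3 genotypes lie close together for most genes.

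The genes with gonadal roles were among the highest. Nr6a1 (germ cell nuclear factor, an orphan repressor made in germ cells) was the highest of the family, at 19.7 and 18.8 FPKM in the WT libraries, 20.5 and 20.96 in P2KO, and 19.6 and 20.5 in DKO. The lowest Nr6a1 library was above the highest library of any other member. Nr5a1 (steroidogenic factor 1, the activator of the genes of steroid synthesis) was at 8.68 and 8.21 FPKM in WT, 9.04 and 8.66 in P2KO, and 8.67 and 8.27 in DKO. Nr0b1 (DAX1, which binds Nr5a1 and represses it) was at 10.4 and 11.6 FPKM in WT, 11.3 and 10.2 in P2KO, and 10.5 and 10.4 in DKO. For both genes the libraries of WT and DKO overlap. Nr5a1 and Nr6a1 are neighbours on chromosome 2 (minus strand), where they span 38692656 to 38714542 and 38723370 to 38927688. Nr5a2 (liver receptor homolog 1), which has the P box of Nr5a1, was not tested, with 1 and 2 counts in WT, 12 and 4 in P2KO, and 5 in each DKO library.

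Among the orphan receptors induced by stimulation, Nr4a1 (NUR77, an immediate early gene that also activates steroid synthesis in Leydig cells) was the member next in FPKM to Nr6a1, and exchanged places with Nr1h2 when the length of the longest transcript was used. It was at 14.6 and 14.98 FPKM in WT, 16.6 and 14.5 in P2KO, and 15.8 and 15.5 in DKO. The lowest and the highest of these libraries are both in P2KO. Its relatives Nr4a2 and Nr4a3 were at 0.461 ± 0.0780 and 0.424 ± 0.0468 FPKM in WT (SD, n = 2).

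The promoters of these 3 genes share a feature that the choice of genes did not use. Promoters were taken from RefSeq on GRCm38.p6 as 250 bases before and 50 after a start of transcription, and 41 of the 45 genes matched, with 62 promoters among 32851. The core of the cyclic AMP response element, TGACG on either strand, was present in 27.4% of the members' promoters and in 20.8% of all. At least 4 copies were found in 0.231% of all promoters and in 3 of the 62, namely those of Nr4a1, Nr4a2 and Nr4a3. This count was chosen after the promoters had been read. The promoter of Nr4a1, the highest of the 3, is shown with TGACG on either strand and the GC box GGGCGG on either strand in capitals.
Nr4a1 (chr15:101266596-101266895, plus strand): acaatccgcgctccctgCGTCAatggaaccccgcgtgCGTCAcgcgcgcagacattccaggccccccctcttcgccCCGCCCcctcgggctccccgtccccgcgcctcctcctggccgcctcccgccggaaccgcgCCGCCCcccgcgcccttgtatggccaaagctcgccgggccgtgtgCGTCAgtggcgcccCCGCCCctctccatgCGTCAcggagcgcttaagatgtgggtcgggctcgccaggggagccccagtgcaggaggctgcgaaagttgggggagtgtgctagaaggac

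Of the orphan receptors, Nr2c1 (testicular receptor 2, a repressor at the elements of other receptors) was at 10.5 ± 0.160 FPKM in WT (SD, n = 2), and its normalized counts in the 6 libraries differed by at most 1.02-fold, from 1156 to 1181. Nr2c2 (testicular receptor 4) was at 5.20 ± 0.0154 FPKM, Esrra (a regulator of energy metabolism) at 5.62 ± 0.135, and Nr2f6 (EAR2) at 2.63 ± 0.627. Esrrb was at 1.26 ± 0.241 FPKM in WT, and Nr2f2 (COUP-TFII, found in stromal cells) at 0.740 ± 0.0531. Esrrg had the lowest level of the tested genes, with 6 to 16 counts per library. Nr2e1, Nr2e3 and Nr2f1 had too few counts to be tested.

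Receptors of lipids and retinoids were led by Nr1h2 (liver X receptor beta, an oxysterol receptor), at 13.7 and 13.1 FPKM in WT, 13.3 and 11.5 in P2KO, and 12.7 and 13.5 in DKO. Its relative Nr1h3 was at 7.79 ± 0.127 FPKM in WT (SD, n = 2). Rxra and Rxrb, the partners with which many of these receptors form dimers, were at 7.36 ± 0.0892 and 7.18 ± 0.772 FPKM. Rxrg was at 1.12 ± 0.0725. Rara, the retinoic acid receptor that spermatogenesis requires, was at 5.12 and 5.69 FPKM in WT, 4.76 and 5.27 in P2KO, and 4.72 and 4.92 in DKO. Rarg was at 0.842 ± 0.110 FPKM and Rarb at 0.294 ± 0.0481. Ppara was at 1.56 ± 0.0399, Vdr (vitamin D receptor) at 1.35 ± 0.0914, Pparg at 0.916 ± 0.102 and Ppard at 0.413 ± 0.0425. Nr1i2 (pregnane X receptor) was close to the filter, with 7 to 14 counts per library. Nr1h4, Nr1i3, Hnf4a and Hnf4g, known mainly from liver and gut, had too few counts to be tested.

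The 5 steroid hormone receptors described here, Nr3c1, Nr3c2, Esr1, Esr2 and Pgr, were low in these whole testes. Nr3c1 (glucocorticoid receptor) was at 1.22 and 1.27 FPKM in WT, 1.43 and 1.42 in P2KO, and 1.32 and 1.36 in DKO. Nr3c2 (mineralocorticoid receptor) was at 0.463 ± 0.00723 in WT (SD, n = 2). Esr1 (estrogen receptor alpha) was at 0.307 and 0.326 FPKM in WT, 0.295 and 0.406 in P2KO, and 0.292 and 0.348 in DKO, with 92 to 128 counts per library. The Esr1 libraries of the 3 genotypes overlap. Esr2 (estrogen receptor beta) had 9 and 8 counts in WT, 9 and 3 in P2KO, and 3 and 6 in DKO, and was not tested. Pgr (progesterone receptor) had 0 counts in all 6 libraries, as did Hnf4g, and with a limit of 3 counts for a count of 0, these depths allow a low level.

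Of the clock receptors, Nr1d1 (REV-ERB alpha, a repressor of clock genes) was at 6.13 and 6.54 FPKM in WT, 6.27 and 6.01 in P2KO, and 6.15 and 6.09 in DKO. Nr1d2 was at 3.49 ± 0.152 FPKM in WT (SD, n = 2) and Rora, an activator at the elements that Nr1d1 binds, at 3.33 ± 0.0725. Rorb was not tested, with at most 2 counts in a library. Thra (thyroid hormone receptor alpha) was at 3.38 ± 0.0618 FPKM, and Thrb at 0.278 ± 0.0856. Many neighbours in the order of WT levels did not differ beyond their spread: the WT libraries overlapped for Nr0b1 and Nr2c1, Rxra and Rxrb, Esrra and Rara, Rara and Nr2c2, for Nr1d2, Thra and Rora in turn, for Vdr, Esrrb and Nr3c1 in turn, for Pparg, Rarg and Nr2f2 in turn, for Nr3c2, Nr4a2, Nr4a3 and Ppard in turn, and for Esr1, Rarb and Thrb in turn.

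The counts of some members may have lost or gained reads where another gene shares exon positions or is a near-identical copy. Exons of Thra and Nr1d1 overlap on opposite strands, as do those of Esrra with Trmt112, Nr2c2 with Mrps25, Nr2f6 with Ocel1 and Rarb with Top2b. Top2b had 877 to 1123 counts against 30 to 49 for Rarb. Further members that overlap a gene on the opposite strand are Rora (Gm15511), Nr2f2 (B130024G19Rik), Nr3c2 (Gm10649), Nr1i3 (Tomm40l) and Nr2f1 (A830082K12Rik), and Nr1h3 (Gm13783), Nr2e3 (Gm15507) and Esrra (Mir6990) overlap one on their own strand. The libraries are strand-specific, but which of the counts by strand was deposited is not given in the sources used here, so these counts are uncertain. Nr2c2 and Nr1d2 have near-identical copies, Gm42933 at 98.0% and AC170187.1 at 96.3% identity, each with 0 counts in all libraries.

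P2KO was first compared with WT. None of the 34 tested nuclear receptor genes passed the threshold of an adjusted p under 0.05 in the quasi-likelihood test of edgeR, Benjamini-Hochberg adjusted, which 0.337% of all tested genes passed. An unadjusted p under 0.05 was found for 4 members, 2 with a positive and 2 with a negative log2 fold change, against 8.57% of all tested genes. The libraries of both genotypes did not overlap for 14 of the 34 members, against 37.5% of all tested genes. The median log2 fold change of the members was 0.04, and 31 of the 34 had a 95% interval that lay within a log2 change of 1 either way.

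The 4 members were Esrrb, Pparg, Esrra and Vdr. Pparg (a fatty acid receptor, best known from fat cells) had 64 and 65 counts in WT, 54 and 36 in P2KO, and 54 and 62 in DKO, and normalized counts of 72.1 and 60.2, 47.9 and 38.3, and 51.7 and 65.7. Both P2KO libraries lie under both WT libraries, and the DKO libraries overlap those of WT. The log2 fold change of Pparg for P2KO against WT was -0.60 (standard error, SE, 0.241; adjusted p = 0.458). The 6 markers of fat cells had a summed level of 6.12 to 6.93 FPKM in WT, 6.28 to 6.42 in P2KO and 6.17 to 6.47 in DKO. None of the 3 tested markers was called. Their median log2 fold change was -0.04 in P2KO against WT and -0.36 in DKO against WT. In DKO against WT, 1 of the 3 had an unadjusted p under 0.05 in the quasi-likelihood test of edgeR, against 14.1% of all tested genes. In P2KO against WT it was 0, against 8.57%. The part of these markers in the values of Pparg was not tested.

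Esrra had normalized counts of 620 and 585 in WT, 529.5 and 518 in P2KO, and 532 and 539 in DKO. The libraries of both knockouts lie under those of WT (log2 fold change -0.20 for P2KO with adjusted p = 0.541, and -0.17 for DKO with adjusted p = 0.416). Vdr had normalized counts of 197 and 175 in WT, 224 and 228 in P2KO, and 236 and 198 in DKO, with log2 fold changes of 0.28 (adjusted p = 0.576) and 0.23 (adjusted p = 0.491). Both comparisons use the same WT libraries. For Nr6a1, next in order of p, the log2 fold change for P2KO against WT was 0.11, with a 95% interval from -0.01 to 0.23 (adjusted p = 0.647).

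**Figure D2:**
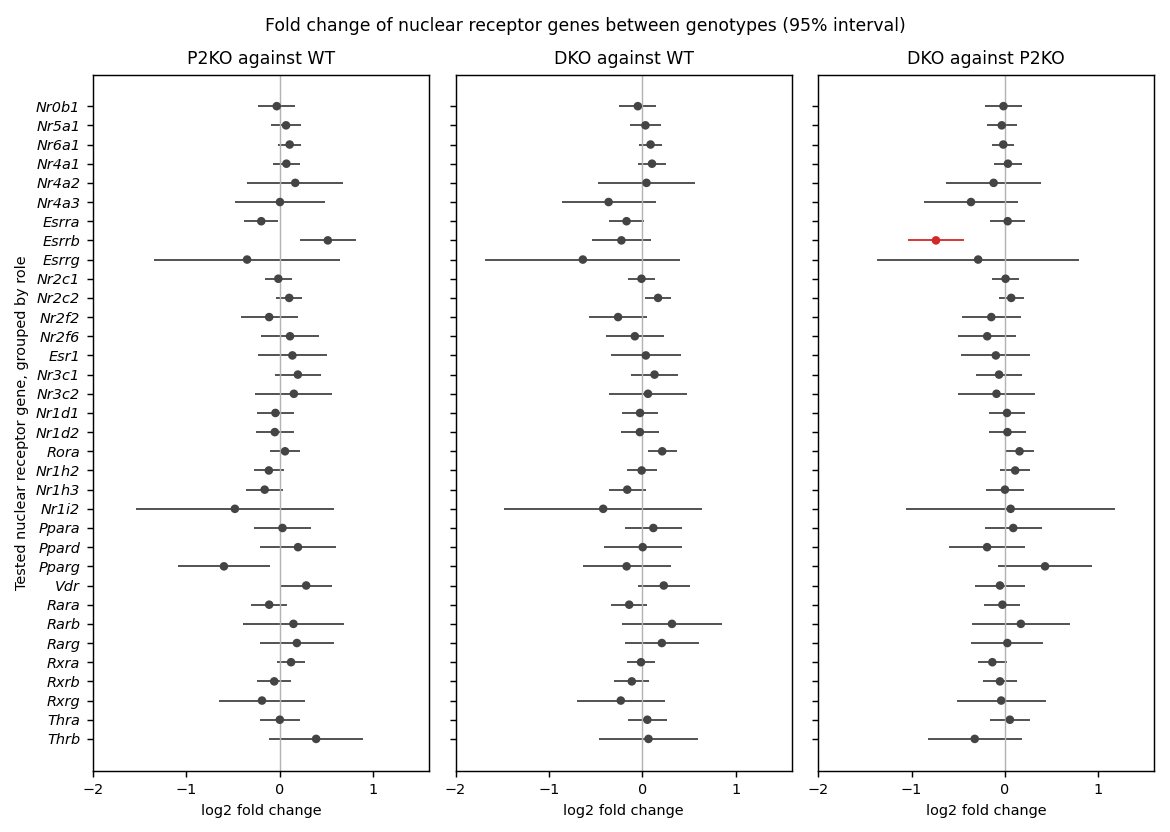
Fitted log2 fold change (points) and 95% interval (lines) of the 34 tested nuclear receptor genes in the 3 comparisons, grouped by role; red marks an adjusted p under 0.05. Esrrb in DKO against P2KO, at -0.74, is the red point, and the widest intervals are those of Nr1i2 and Esrrg, which had at most 16 counts in a library.

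In the comparison of DKO with WT, no nuclear receptor gene was called either, against 3.22% of all tested genes in the quasi-likelihood test of edgeR, Benjamini-Hochberg adjusted. An unadjusted p under 0.05 was found for Rora and Nr2c2, both with positive log2 fold changes, against 14.1% of all tested genes. The libraries did not overlap for 18 of the 34 members, 9 in each direction, against 43.2% of all tested genes. The median log2 fold change of the members was -0.01, and 32 of the 34 had a 95% interval within a log2 change of 1 either way.

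Rora had normalized counts of 1092 and 1034 in WT, 1160.2 and 1044 in P2KO, and 1181 and 1281 in DKO. Both DKO libraries lie above the other 4 libraries, and against WT the DKO libraries gave a log2 fold change of 0.21 (SE 0.0770, adjusted p = 0.149). Nr2c2 had 1924 and 1872 in WT, 1974 and 2096 in P2KO, and 2052 and 2213 in DKO, with a log2 fold change of 0.17 (SE 0.0670, adjusted p = 0.208). Its DKO libraries lie above those of WT and overlap those of P2KO. Nr2f2 had 149.8 and 162 in WT, 141 and 148 in P2KO, and 125 and 136 in DKO, and both DKO libraries lie under the other 4 (log2 fold change for DKO against WT -0.26, adjusted p = 0.482).

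For other members with known roles in the testis or in hormone response, the intervals bound the difference between DKO and WT. The 95% interval of the log2 fold change ran from -0.13 to 0.19 for Nr5a1, from -0.25 to 0.15 for Nr0b1, from -0.03 to 0.21 for Nr6a1, from -0.12 to 0.38 for Nr3c1, from -0.33 to 0.05 for Rara, from -0.22 to 0.17 for Nr1d1 and from -0.34 to 0.41 for Esr1. A change of Esr1 by up to 1.33-fold is thus not excluded at this depth and number of animals.

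**Figure D3:**
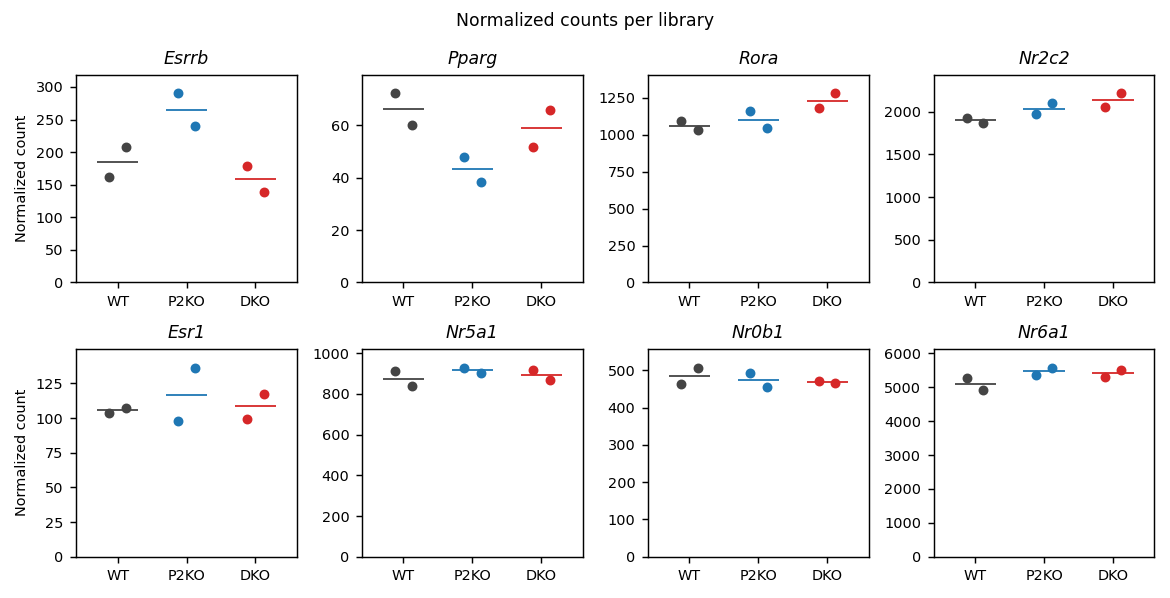
Normalized counts of 8 nuclear receptor genes in each library (points) with the mean of each genotype (lines); each vertical axis starts at 0. Esrrb is higher in both P2KO libraries (290 and 241) than in the other 4 libraries, while the libraries of Nr5a1, Nr0b1 and Nr6a1 lie close together.

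DKO was then compared with P2KO, lines that by their labels differ in Padi4. Padi4 itself, at 11 and 10 counts in P2KO and 4 in each DKO library, was not called in this comparison (log2 fold change -1.31, adjusted p = 0.404). A single nuclear receptor gene was called, and it was lower, against 1.21% of all tested genes in the quasi-likelihood test of edgeR, Benjamini-Hochberg adjusted. An unadjusted p under 0.05 was found for Esrrb and Rora, against 11.8% of all tested genes, and the libraries did not overlap for 10 of the 34 members, against 42.8%. The median log2 fold change was -0.02.

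The called gene was Esrrb, an orphan receptor best known for its part in the self-renewal of embryonic stem cells and in the placenta. Its gene spans 86361117 to 86521628 of chromosome 12 (plus strand), is annotated with 6 transcripts, and shares no exon with another gene. Its counts were 144 and 225 in WT, 327 and 226 in P2KO, and 187 and 131 in DKO. As normalized counts these were 162 and 208 in WT, 290 and 241 in P2KO, and 179 and 139 in DKO. Both P2KO libraries are above the other 4 libraries, and the libraries of WT and DKO overlap. Esrrb was 0.599-fold as high in DKO as in P2KO (log2 fold change -0.74, SE 0.149, 95% interval from -1.04 to -0.44, adjusted p = 0.0039). Against WT, the log2 fold change of Esrrb was 0.51 in P2KO (SE 0.146, adjusted p = 0.158) and -0.22 in DKO (SE 0.156, adjusted p = 0.578).

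The call of Esrrb rests on few libraries. The log2 fold change for DKO against P2KO was -0.59 (adjusted p = 0.162) when P2KO 1, with 327 counts, was left out, and -0.57 (adjusted p = 0.238) when DKO 2, with 131 counts, was left out, so the call is lost in either case. When WT 2, with 225 counts, was left out, Esrrb was called higher in P2KO than in WT (log2 fold change 0.71, adjusted p = 0.0198). The related genes of its P-box class did not pass: the log2 fold change for DKO against P2KO was 0.03 for Esrra (adjusted p = 0.947), and -0.29 for Esrrg, with an interval from -1.37 to 0.79.

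The promoter at the annotated start of Esrrb, from RefSeq on GRCm38.p6, holds 2 copies of TGACG (capitals) and neither AGGTCA, the core element of nuclear receptors, nor TCAAGGTCA, the extended element of the estrogen-related receptors. A second promoter of Esrrb in the table, chr12:86421394-86421693, holds none of the motifs searched. AGGTCA on either strand was found in 16.3% of all promoters and 19.4% of the members' promoters, and TCAAGGTCA, which contains it, in 0.423% and 0. The members' promoters with AGGTCA belonged to 11 genes, namely Nr0b1, Nr1d2, Nr1h4, Nr5a2, Nr6a1, Pparg, Rara, Rarg, Rxra, Rxrg and Thrb.
Esrrb (chr12:86360867-86361166, plus strand): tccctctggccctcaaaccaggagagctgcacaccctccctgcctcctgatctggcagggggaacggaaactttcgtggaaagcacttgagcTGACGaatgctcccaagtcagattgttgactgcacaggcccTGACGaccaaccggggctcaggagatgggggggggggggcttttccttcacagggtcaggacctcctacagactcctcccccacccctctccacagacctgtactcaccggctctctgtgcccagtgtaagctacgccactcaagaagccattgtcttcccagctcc

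Of the other members with a low p in DKO against P2KO, Rora had a log2 fold change of 0.16 (adjusted p = 0.416), Rxra of -0.13 (adjusted p = 0.493), Pparg of 0.43 (adjusted p = 0.511) and Nr4a3 of -0.36 (adjusted p = 0.599). Rxra had normalized counts of 985 and 978 in WT, 1078 and 1055 in P2KO, and 978 and 965 in DKO, so that both P2KO libraries are above the other 4. Nr4a3 had 60 and 61 counts in WT, 75 and 53 in P2KO, and 39 and 56 in DKO, and its P2KO and DKO libraries overlap as normalized counts. Nr4a3, from 48045153 to 48086447, is the only member on chromosome 4, which also carries Padi2 and Padi4.

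Receptors act through coregulators, and of a list of 23 coregulator genes 5 were called higher in DKO than in WT and 0 lower, against 2.06% of all tested genes called higher. These were Ncor1 (the corepressor of unliganded receptors; log2 fold change 0.34, adjusted p = 0.00119), Ncoa3 (a coactivator of the steroid receptor coactivator family; 0.36, adjusted p = 0.0110), Crebbp and Ep300 (histone acetyltransferases; 0.33, adjusted p = 0.00903, and 0.32, adjusted p = 0.0108) and Ncoa6 (0.24, adjusted p = 0.0497), in the quasi-likelihood test of edgeR, Benjamini-Hochberg adjusted. Normalized counts of Ncor1 were 3367 and 2836 in WT, 3294 and 3465 in P2KO, and 3911 and 3959 in DKO, and both DKO libraries are above the other 4. Those of Ncoa3 were 810.0 and 657 in WT, 796 and 833 in P2KO, and 938 and 944 in DKO, in the same order. For all 5 the DKO libraries lie above those of WT. The median log2 fold change of the 23 was 0.18, against -0.0048 for all tested genes. None was called in P2KO against WT or in DKO against P2KO, where 5 of the 23 in each had an unadjusted p under 0.05 by the same test, against 8.57% and 11.8% of all tested genes; the count in other analyses, DESeq2 included, was 0 or 1, apart from 3 (Ep300, Ncoa2 and Ncor1) in P2KO against WT without WT 1.

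The fold changes for DKO against WT moved with the length of the genes. Of the 1460 tested genes with merged exons of 10000 bases or more, 11.8% were called higher in DKO than in WT and the median log2 fold change was 0.13. Over the 34 members, Spearman's rho of the log2 fold change with length was 0.347, and over all tested genes it was 0.292; the points share their libraries, and genes are not independent replicates. In P2KO against WT rho was 0.496 over the members and 0.148 over all tested genes, and in DKO against P2KO it was -0.326 over the members and 0.169 over all tested genes. Rora, Nr2c2, Nr6a1 and Esr1 are the 4 tested members of that length. When a curve for length was taken out of each library, the log2 fold change was 0.08 for Rora and 0.02 for Nr2c2, and of the coregulators Ncoa3 and Ncor1 were called. This step, named the correction for length below, removes the average shift at each length whatever its source. The lower values of long genes after it therefore follow from the step itself, and the source of the trend was not tested. The coregulator count also depended on single libraries: it was 1 (Crebbp) without the WT 2 library, 1 (Ncor1) without DKO 2, 3 without DKO 1 and 8 without WT 1.

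**Figure D4:**
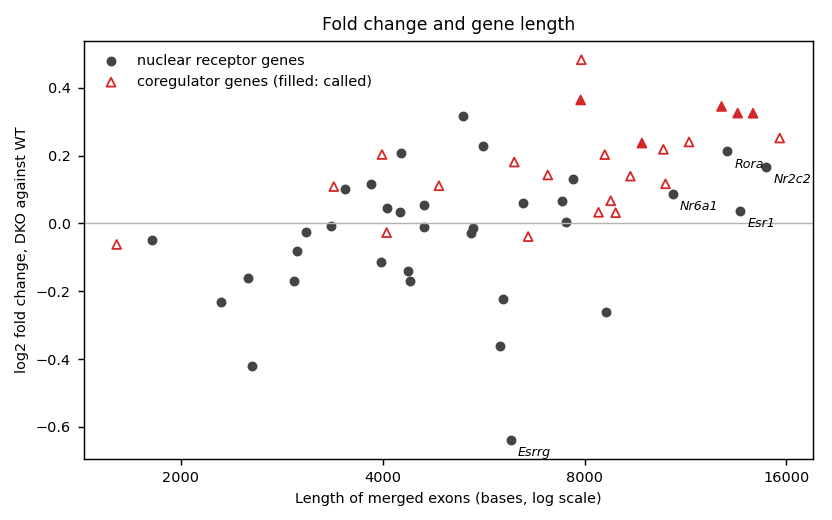
Log2 fold change for DKO against WT of the 34 tested nuclear receptor genes (circles) and 23 coregulator genes (triangles, filled where called) against the length of their merged exons (log scale). The 5 called coregulators are long genes with values between 0.24 and 0.36, and the 4 members of 10000 bases or more, Rora, Nr2c2, Nr6a1 and Esr1, are at 0.21, 0.17, 0.09 and 0.04.

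Genes known to respond to the receptors were taken as lists. Of 14 genes that Nr5a1 is known to activate, 4 were called higher and 1 lower in DKO than in WT in the quasi-likelihood test of edgeR, Benjamini-Hochberg adjusted: Star (the carrier of cholesterol into mitochondria; log2 fold change 0.51, adjusted p = 1.59e-04), Hsd3b6 (a steroid dehydrogenase; 0.41, adjusted p = 3.08e-04), Cyp17a1 (0.31, adjusted p = 0.0193) and Cyp11a1 (0.28, adjusted p = 0.0324) were higher, and Hsd3b1 was lower (-0.46, adjusted p = 2.73e-04). Star had normalized counts of 2175 and 1967 in WT, 2825 and 2054 in P2KO, and 2968 and 2923 in DKO, and both DKO libraries are above the other 4. Hsd3b6 had 1593 and 1644 in WT, 1455 and 1319 in P2KO, and 2273 and 2014 in DKO, and was also higher in DKO than in P2KO (log2 fold change 0.63, adjusted p = 2.93e-07). Hsd3b1 had 1961 and 2299 in WT, 1768 and 1876 in P2KO, and 1385 and 1711 in DKO, and its DKO libraries lie under the other 4.

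The 14 genes had a median log2 fold change of 0.05 in DKO against WT. Of all tested genes, 2.06% were called higher and 3.22% were called in either direction in that comparison. Without the DKO 1 library, which had the highest counts of Cyp11a1 and Cyp17a1, Star was the only one called. DESeq2 on all 6 libraries called Hsd3b6 and Hsd3b1, with independent filtering, and Hsd3b6 alone without it. These 5 genes are also 5 of the 7 markers of Leydig cells, whose summed level was 265 to 271 FPKM in WT, 266 to 296 in P2KO and 281 to 332 in DKO. Of the other 2 markers, Lhcgr (the receptor of luteinizing hormone) had a log2 fold change of -0.38 in DKO against WT (adjusted p = 0.128) and of -0.44 in DKO against P2KO (adjusted p = 0.0982), and Insl3 had one of 0.04 in DKO against WT. Nr5a1 itself, as given above, had a log2 fold change of 0.03.

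Of 15 clock genes, Clock (log2 fold change 0.31, adjusted p = 0.0198) and Per1 (0.27, adjusted p = 0.00893) were called higher in DKO than in WT and none lower, in the quasi-likelihood test of edgeR, against 2.06% of all tested genes called higher. Per1 had normalized counts of 3792 and 3529 in WT, 4192 and 3680 in P2KO, and 4356 and 4497 in DKO, and both DKO libraries are above the other 4. Clock had 763 and 778 in WT, 891 and 930 in P2KO, and 925 and 985 in DKO. Neither was called without WT 2, without DKO 1 or without DKO 2, and with the correction for length Per1 alone was called. The clock receptors Nr1d1 and Nr1d2 had log2 fold changes of -0.03 in both cases.

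Of 16 tested target genes of the liver X receptors and PPARs, Cpt1a (fatty acid entry into mitochondria) was called higher in DKO than in WT (log2 fold change 0.36, adjusted p = 0.0118), against 2.06% of all tested genes called higher. It was not called without WT 2, DKO 1 or DKO 2. None of the 10 tested retinoic acid targets, 14 immediate early genes, 8 glucocorticoid response genes and 9 chaperones of the receptors was called in any comparison in the quasi-likelihood test of edgeR. In DKO against WT, an unadjusted p under 0.05 was found for 1, 3, 0 and 1 of them in that order, against 14.1% of all tested genes. In P2KO against WT it was found for 2, 1, 1 and 0, against 8.57%, and in DKO against P2KO for 1, 1, 3 and 0, against 11.8%. The 3 glucocorticoid response genes were Sult1e1, with a log2 fold change of 0.30, and Klf9 and Nfkbia, with -0.17 and -0.27. DESeq2 called none of them either. With the correction for length, Cdc37, a chaperone cofactor, was called lower in DKO than in WT, and Sult1e1, of the glucocorticoid list, was called higher in DKO than in P2KO. The lowest adjusted p among these in DKO against WT was that of Egr1, an immediate early gene, with a log2 fold change of 0.51 (adjusted p = 0.0681).

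Markers of other cells were measured beside these values. Of 6 markers of elongating spermatids, Tnp2 was lower in P2KO than in WT (log2 fold change -0.29, adjusted p = 7.62e-04), and Prm1 (-0.22, adjusted p = 0.0302) and Tnp1 (-0.25, adjusted p = 0.0130) were lower in DKO than in WT. The summed level of the 6 was 22070.1 to 23535 FPKM in WT, 19139 to 20739 in P2KO and 20062 to 20254.5 in DKO. Of 5 markers of round spermatids, Spaca1 was lower in DKO than in P2KO (-0.25, adjusted p = 0.0402). Of all tested genes, 0.14% were called lower in P2KO than in WT, 1.16% in DKO than in WT and 0.598% in DKO than in P2KO. No tested marker of Sertoli, peritubular myoid, endothelial, epididymal or fat cells, of macrophages, of spermatogonia or of spermatocytes was called. Only 1 of the 6 epididymal markers and 3 of the 6 markers of fat cells had enough counts to be tested. Of the endothelial markers, 2 of the 4 tested had an unadjusted p under 0.05 in DKO against WT, against 14.1% of all tested genes, and the median log2 fold change was 0.50. Their summed level was 1.75 to 1.96 FPKM in WT, 2.08 to 2.13 in P2KO and 2.27 to 2.36 in DKO, and the 3 genotypes did not overlap. For the spermatogonia markers the summed level was 44.0 to 47.4 FPKM in WT, 41.9 to 44.9 in P2KO and 40.9 to 41.7 in DKO. For the round spermatid markers it was 385 to 389, 388 to 430 and 374 to 380 in the same order. In both lists the DKO libraries lie under those of WT and P2KO. The summed level of the 9 Sertoli markers was 351 to 360.3 FPKM in WT, 359 to 371 in P2KO and 315 to 353 in DKO. The part of these shifts in the values of the nuclear receptor genes was not tested.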

How the data were processed

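RNA of whole testis was sequenced in 6 libraries, 2 per genotype. The authors trimmed reads with Trim Galore, used STAR to align them to GRCm38, and deposited STAR's raw read counts per Ensembl gene, without normalization or filter; tool versions and the strand column are not given in the sources used here. The counts were tested with edgeR 4.0.16 (R 4.3.3, limma 3.58.1): genes kept by filterByExpr (minimum count 10), TMM scaling, and the quasi-likelihood test on all 6 libraries with a term for genotype (3 residual degrees of freedom), with Benjamini-Hochberg adjustment over all tested genes. The script was tested on simulated data. A standard error is the absolute log2 fold change divided by the square root of F. Lengths and positions are from GENCODE mouse release 21 (Ensembl 96); all 55536 identifiers matched.

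Near-identical copies were found with BLAST 2.17.0 (at least 95% identity over 150 bases and 50% of the shorter transcript). Replicate numbers were not treated as pairs in the main test. The study used DESeq2; DESeq2 1.42.0 was run as an alternative. Other alternatives were RLE and upper-quartile scaling, other filters, a prior count of 2, gene length offsets (lowess span 0.3), a replicate block, leaving out chromosome 4, edgeR on the 2 genotypes and leaving out each library. DESeq2 without independent filtering was added after seeing the data.

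The genes and lists were chosen with earlier results of these data known. Values in every library are given for called members, the 5 members with the lowest unadjusted p in each comparison, the 3 highest by FPKM in WT, and Esr1, Esr2, Nr3c1, Nr5a1, Nr0b1, Nr6a1, Nr2c2, Nr1d1 and Rara; of other lists, mainly called genes are named. With 2 libraries per genotype single genes cannot pass 0.05 in an exact permutation test.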

Additional observations from a re-analysis of the deposited data

How the results depend on the processing

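The count of nuclear receptor genes called in P2KO against WT ranged from 0 to 1 when single libraries were left out (1, Esrrb, without WT 2), and it was 0 under all other alternatives. In DKO against WT it was 0 throughout. In DKO against P2KO the count called lower ranged from 0 to 1 when single libraries were left out, and it was 0 with DESeq2 on all 6 libraries and on the 2 genotypes, where independent filtering left Esrrb without an adjusted p; without that filtering, Esrrb was called (log2 fold change -0.74, adjusted p = 0.0377). Esrrb also passed under the replicate block (-0.74, adjusted p = 0.0181), which changed no call of a nuclear receptor gene. Same-numbered libraries of 2 genotypes correlated between -0.0572 and 0.0574 in their deviations, so no strong shift by number was shared over all tested genes. With 2 libraries per genotype, these values cannot show whether the libraries were paired in a weaker way. Of 1643 log2 fold changes of single members under alternatives, 3 changed their call, all of Esrrb; this leaves out 75 values to which DESeq2 gave no adjusted p, among them those of Esrrb named above. Of the 1627 that were called in neither analysis, 89 had another sign. In the order of WT levels Nr6a1 stayed at rank 1 with TPM and with the length of the longest transcript, and with the latter Nr4a1 moved from rank 2 to rank 3, Nr1h2 from rank 3 to rank 2, Nr2c2 from rank 13 to rank 8 and Rxra from rank 8 to rank 11.

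Counts over the whole table, which serve as background, moved more. In DKO against WT, 428 genes were called higher and 240 lower, and with DESeq2 on the 2 genotypes 199 and 109; without single libraries the count called higher ran from 129 (without DKO 2) to 762 (without WT 1), and 110 were called lower without DKO 1. In P2KO against WT, 41 and 29 genes were called, 22 and 18 with DESeq2 on all 6 libraries, 221 and 90 without WT 1, and 13 and 11 without genes on chromosome 4. In DKO against P2KO, 126 and 124 were called, 321 and 258 with edgeR on the 2 genotypes, 61 and 54 without DKO 1, and 51 and 57 without DKO 2.

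Depth limits the 11 untested members, with at most 12 counts in a library, and Nr1i2 and Esrrg. Leaving out a library leaves 1 library in a genotype, which is then assumed to vary like the others.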
